A study of Mus musculus with 6 samples.

Results

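The lymphatic vessel genes examined were Prox1, Flt4, Vegfc, Lyve1, Pdpn, Reln and Mmrn1. They were chosen by name as markers of lymphatic endothelium and parts of its growth factor axis, and they are 7 of the 17572 genes in the count table. Each was measured by RNA sequencing in skin scars of wild-type C57BL/6 mice at week 2 after surgery. The hypertrophic scar group (HS, n = 3 libraries) came from wounds on the upper back whose edges were pulled to the rib cage and fixed there by sutures under tension. The normal scar group (NS, n = 3 libraries) came from wounds on the lower back closed where they lay, without tension. The site on the back thus changed with tension, and the effects cannot be told apart in any difference below. The labels give no age or sex. They also leave unsaid whether each library is a different mouse, so the tests reflect only the variation among these 6 libraries, which may be technical.

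Lymphatic vessels drain fluid and immune cells from the skin, and they regrow in healing wounds. Prox1 is the transcription factor that sets and keeps lymphatic endothelial identity. The ligand VEGF-C, made by Vegfc, drives lymphatic growth through the receptor VEGFR3, made by Flt4, after CCBE1 and the protease ADAMTS3 have helped to mature it. Lyve1 encodes a hyaluronan receptor, Pdpn the membrane glycoprotein podoplanin, Reln the secreted glycoprotein reelin and Mmrn1 the adhesive protein multimerin 1. Several of these genes are also active outside lymphatics. Podoplanin is found on fibroblasts and keratinocytes, LYVE1 on a class of resident macrophages, multimerin 1 in platelets, and PROX1 in some muscle and nerve lineages.

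All 7 genes had higher values in each HS library than in any NS library. Only Pdpn and Mmrn1 passed the test over all genes, with rises of 2.99-fold and 1.79-fold. Prox1, Vegfc and Flt4 stood at 3.04-fold, 2.39-fold and 2.23-fold without passing, and Lyve1 and Reln both at 1.49-fold without passing. For comparison, 6.33% of the 14513 genes tested passed as higher in HS, 2.51% as lower and 8.85% in either direction. The values of the groups did not overlap, with HS above, for 17.2% of the tested genes, and in either direction for 32.3%. All 7 genes had an unadjusted p below 0.05, as did 15.2% of the tested genes with HS higher and 26.3% in either direction. The median log2 fold change was 1.15 over the 7 genes and -0.01 over all tested genes. Tests are those of the quasi-likelihood method of edgeR, adjusted after Benjamini and Hochberg with a threshold of 0.05, and fold changes are HS over NS.

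Summed counts per library ran from 20375395 to 27859889. On the first principal component, which held 53.3% of the variance, HS replicate 2 scored 10.2, between the other HS libraries (57.8 and 40.5) and NS (-38.7 to -33.5). Levels are given as CPM, counts per 1e6 reads of the library total after TMM scaling. The keratinocyte markers checked, such as Krt5 and Krt14, were abundant in both groups, with summed levels of 6918 to 10770 CPM in HS and 7693 to 8819 CPM in NS. Skeletal muscle markers were also present, at 5056 to 9987 CPM in HS and 5269 to 6032 CPM in NS.

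Promoter windows for the lymphatic regulator Prox1 and for Pdpn and Mmrn1, the 2 genes that passed, are shown because these are the genes the results below turn on most. They run from 250 bases before to 50 after a RefSeq start site on build GRCm38.p6, and 6 of the 7 genes had such a window. Capitals mark matches on either strand to TATAAA (the TATA box), AGGTCA (a nuclear receptor half-site) or AACAAT (a SOX core). In Prox1, at chr1:190170778-190171077 on the minus strand, the capitals are the TATAAA letters on the opposite strand (printed as TTTATA), 34 bases before the start site. In Pdpn, at chr4:143299515-143299814 on the minus strand, they are the half-site, also 34 bases before the start site. In Mmrn1, at chr6:60944067-60944366 on the plus strand, they are the SOX core, 231 bases before the start site. This RefSeq start lies inside the Mmrn1 gene as GENCODE annotates it, downstream of the annotated gene start. The Prox1 window shown lies wholly upstream of the Prox1 gene in that annotation. The other Prox1 window, at chr1:190169466-190169765, held none of the searched motifs.
Prox1: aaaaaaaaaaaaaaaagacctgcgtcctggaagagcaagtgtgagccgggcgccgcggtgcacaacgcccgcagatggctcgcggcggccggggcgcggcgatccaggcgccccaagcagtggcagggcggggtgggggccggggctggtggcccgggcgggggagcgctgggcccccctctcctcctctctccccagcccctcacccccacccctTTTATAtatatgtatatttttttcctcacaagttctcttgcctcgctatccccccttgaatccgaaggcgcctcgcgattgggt
Pdpn: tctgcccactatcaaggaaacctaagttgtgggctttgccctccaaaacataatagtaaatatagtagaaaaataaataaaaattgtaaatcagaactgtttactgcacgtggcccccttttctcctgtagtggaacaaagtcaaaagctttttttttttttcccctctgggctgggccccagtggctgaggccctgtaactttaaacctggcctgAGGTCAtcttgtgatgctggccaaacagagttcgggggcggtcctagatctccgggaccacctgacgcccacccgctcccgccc
Mmrn1: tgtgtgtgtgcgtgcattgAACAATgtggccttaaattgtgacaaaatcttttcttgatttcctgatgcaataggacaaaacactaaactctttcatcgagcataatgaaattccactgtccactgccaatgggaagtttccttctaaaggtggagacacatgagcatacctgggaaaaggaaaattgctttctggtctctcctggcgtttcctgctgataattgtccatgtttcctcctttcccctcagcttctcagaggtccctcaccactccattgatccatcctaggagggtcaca
Of 32851 promoter windows of the same length, 13.6% held the TATA letters, 16.3% the half-site and 10.7% the SOX core. The searched ETS core CCGGAA (14.9% of windows) was found in the Reln window alone among the 7 windows of these genes, Prox1 having 2, and the GATA core AGATAA (11.2%) in none of them. No motif overlapped another. These matches describe the letters only. The GC content was 64.3% in the Prox1 window shown, 48.7% in Pdpn and 44.3% in Mmrn1, against a median of 52.7% over all windows.

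Prox1 (ENSMUSG00000010175, chromosome 1, 190118035 to 190170714, minus strand) had the fewest reads of the 7 genes. The counts were 66, 54 and 67 over HS replicates 1 to 3, against 9, 29 and 16 over NS replicates 1 to 3. The HS levels were nearly equal, at 2.48, 2.41 and 2.45 CPM, while the NS levels of 0.393, 1.39 and 0.640 CPM spread 3.54-fold. Counting error alone gave 95% Poisson intervals of 4.12 to 17.1 for the 9 counts and 19.4 to 41.6 for the 29 counts, so these NS libraries differed beyond counting error. The intervals for HS replicates 1 to 3 were 51.0 to 84.0, 40.6 to 70.5 and 51.9 to 85.1 counts. They are wide beside the spread of the HS levels, so counting error leaves room for HS levels less equal than those seen. The log2 fold change was 1.60 ± 0.513 (SE, 95% interval 0.44 to 2.76, edgeR adjusted p = 0.08409). It was 2.22 without NS replicate 2, again without passing (edgeR adjusted p = 0.0899). Of the Prox1 exonic length, 1.59% is shared with the antisense gene Prox1os, and whether counting used the strand is not known here.

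Prox1 is also active in some muscle lineages. Of 14 skeletal muscle markers tested, the fast myosin Myh4 rose 9.36-fold and the myosin Myh2 fell by 1.60 on the log2 scale, and the other 12 did not pass. Without HS replicate 1, 2 muscle markers rose and 4 fell. The part of muscle in the Prox1 values was not tested.

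Flt4 (ENSMUSG00000020357, chromosome 11, 49609263 to 49652739, plus strand), the VEGF-C receptor, gave counts of 432, 304 and 416 in HS, against 74, 195 and 191 in NS. These made 16.2, 13.5 and 15.2 CPM in HS and 3.23, 9.36 and 7.63 CPM in NS. As in Prox1, NS replicate 1 was lowest, NS replicate 2 was the highest of the NS libraries, and the HS libraries lay close together. The log2 fold change was 1.15 ± 0.340 (SE, 95% interval 0.38 to 1.93, edgeR adjusted p = 0.07122).

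Vegfc (ENSMUSG00000031520, chromosome 8, 54077606 to 54187096, plus strand), the ligand, was counted 71, 58 and 81 times in HS, against 21, 18 and 41 times in NS. Its levels were 2.67, 2.58 and 2.97 CPM in HS and 0.918, 0.864 and 1.64 CPM in NS. Here NS replicate 3 was the highest NS library, at less than every HS library. The log2 fold change was 1.25 ± 0.404 (SE, 95% interval 0.34 to 2.17, edgeR adjusted p = 0.08496). With DESeq2, which called 11.1% of the tested genes higher in HS, Prox1, Flt4 and Vegfc passed (DESeq2 adjusted p = 0.02239, 0.0085 and 0.02635), so that 5 of the 7 genes were called. Limma-voom called 4.52% of the tested genes higher, and Pdpn and Mmrn1 among the 7.

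Pdpn (ENSMUSG00000028583, chromosome 4, 143267431 to 143299564, minus strand) had the highest level of the 7 genes. It stood at 91.2, 38.5 and 54.9 CPM in HS and 18.2, 21.5 and 22.1 CPM in NS. The NS libraries agreed within 1.21-fold, while the HS libraries spread 2.37-fold, with replicate 1 highest and replicate 2 lowest. It rose from 20.6 ± 2.09 to 61.5 ± 27.0 CPM (SD, n = 3), a log2 fold change of 1.58 ± 0.302 (SE, 95% interval 0.86 to 2.29, edgeR adjusted p = 0.02744). The edgeR call was lost without HS replicate 3 (adjusted p = 0.0892), NS replicate 1 (adjusted p = 0.1039), NS replicate 2 (adjusted p = 0.0996) or NS replicate 3 (adjusted p = 0.0837). Across all genes these 4 fits called 148, 94, 25 and 48 genes, against 1284 with all libraries, so most calls named below share this dependence.

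Fibroblasts also carry podoplanin. Of 16 fibroblast markers 8 rose, among them the proteoglycan gene Lum (3.47-fold) and the matrix protein gene Dpt (2.59-fold), and 8 did not pass. The median log2 fold change over the 16 was 0.87. Their summed level was 57090, 27250 and 45010 CPM in HS replicates 1 to 3 and 12050 to 15220 CPM in NS. The collagen genes Col1a1, Col1a2 and Col3a1 made up most of this sum, Col3a1 alone 28581, 12137 and 21418 CPM in HS. The order of the sum among the HS libraries was that of Pdpn, but also that of the summed endothelial, platelet and macrophage markers. The count of 8 was 13 with DESeq2 or with HS replicate 2 left out, 1 with HS replicate 3 left out and 0 with any NS library left out. Of 12 basal and wound-edge keratinocyte markers, Krt6b rose 13.2-fold and Krt16 5.52-fold, while Krt5 fell by 0.49 on the log2 scale. The calls of Krt6b and Krt16 were lost when low counts were not filtered and without any 1 library other than HS replicate 1. That of Krt5 was lost under the replicate block and without any 1 library other than HS replicate 2. The part of these cells in the Pdpn values was not tested.

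Mmrn1 (ENSMUSG00000054641, chromosome 6, 60924976 to 60989378, plus strand) was the other gene that passed. Its reads numbered 686, 731 and 871 in HS, against 326, 305 and 539 in NS, or 25.8, 32.6 and 31.9 CPM and 14.3, 14.6 and 21.5 CPM. Its highest library was HS replicate 2, the library in which Flt4, Vegfc, Prox1, Pdpn and Reln were lowest among HS. It rose from 16.8 ± 4.10 to 30.1 ± 3.73 CPM (SD, n = 3), a log2 fold change of 0.84 ± 0.189 (SE, 95% interval 0.41 to 1.26, edgeR adjusted p = 0.03105). This call too was lost without HS replicate 3 (adjusted p = 0.1097), NS replicate 1 (adjusted p = 0.1245), NS replicate 2 (adjusted p = 0.1418) or NS replicate 3 (adjusted p = 0.0595).

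Platelets also hold multimerin 1. Of 7 platelet markers tested, Selp, which encodes P-selectin and is also made by endothelium, rose 2.62-fold, a call lost when HS replicate 3 or any NS library was left out. The platelet integrin chain Itga2b stood at 6.77, 5.26 and 7.39 CPM in HS and 8.57, 6.77 and 5.88 CPM in NS, and Pf4, a platelet chemokine also made by macrophages, at 63.5, 11.7 and 21.7 CPM in HS and 7.04, 10.2 and 12.7 CPM in NS. Itgb3, an integrin chain of platelets and other cells, stood at 63.4, 26.7 and 56.5 CPM in HS and 15.95, 21.0 and 23.0 CPM in NS (edgeR adjusted p = 0.05303). Gp1bb, a chain of the platelet von Willebrand factor receptor, went the other way, at 2.09 to 2.86 CPM in HS and 3.68 to 4.85 CPM in NS (edgeR adjusted p = 0.09674). The summed platelet markers were 158, 53.5 and 100.1 CPM in HS replicates 1 to 3 and 43.7, 47.8 and 49.8 CPM in NS, so each HS library was above each NS library. Pf4 and Itgb3, both also made by other cells, made up most of this sum, and Itga2b and Gp1bb did not share its separation. The sum covers 13 genes, of which 7 were tested, and includes untested ones such as Ppbp (7.48 CPM in HS replicate 1). The part of platelets in the Mmrn1 values was not tested.

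Lyve1 (ENSMUSG00000030787, chromosome 7, 110850607 to 110863239, minus strand) stood at 26.7, 20.3 and 19.0 CPM in HS and 11.3, 15.9 and 17.1 CPM in NS. The groups lay close, the lowest HS library being 1.11-fold above the highest NS library. The log2 fold change was 0.57 ± 0.203 (SE, 95% interval 0.12 to 1.03, edgeR adjusted p = 0.1074), and no alternative called it, the smallest adjusted p being 0.05785. Some resident macrophages carry LYVE1. Of 17 of their markers tested, 3 fell (Retnla, Cd209d and Fcna, by 3.19, 1.43 and 2.10 on the log2 scale). With edgeR 0 passed as higher. At an unadjusted p below 0.05, 2 were higher and 6 lower. DESeq2 called 1 higher and 4 lower, and limma-voom 0 higher and 3 lower. Of the 17, 5 had a log2 fold change above 0, Cd68 and Mrc1 among them, and the median was -0.48. The edgeR count of 3 that fell was 10 when HS replicate 1 was left out and 1 when NS replicate 1 was. It was 0 when HS replicate 3 or NS replicate 2 or 3 was left out. Cd68, a lysosomal protein of macrophages, stood at 110.9, 45.1 and 77.2 CPM in HS and 26.4, 43.1 and 33.9 CPM in NS (edgeR adjusted p = 0.08445), and Mrc1, the mannose receptor, at 177 to 457 CPM in HS and 182 to 196 CPM in NS (edgeR adjusted p = 0.2332). The summed level of the macrophage markers was 1544, 656 and 896 CPM in HS replicates 1 to 3 and 952 to 1061 CPM in NS. The part of macrophages in the Lyve1 values was not tested.

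Reln (ENSMUSG00000042453, chromosome 5, 21884454 to 22344702, minus strand) had the smallest separation. Its levels were 15.6, 8.95 and 10.4 CPM in HS and 8.31, 6.91 and 8.31 CPM in NS, the lowest HS library being 1.08-fold above the highest NS library. The log2 fold change was 0.57 ± 0.239 (SE, 95% interval 0.03 to 1.11, edgeR adjusted p = 0.1646). It was 0.30 without HS replicate 1, the highest library, and 0.73 without HS replicate 2, where it passed (edgeR adjusted p = 0.04411). That fit called 3257 genes over the whole table. Of the Reln exonic length, 1.04% is shared with the antisense gene Gm10475. Reelin is known from neurons, and of 12 nerve and Schwann cell markers tested edgeR called 0. At an unadjusted p below 0.05, 2 were higher and 1 lower. Of the 12, 6 had a log2 fold change above 0, and the median was 0.01. DESeq2 called 1 of the 12 higher and limma-voom 0.

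**Figure D1:**
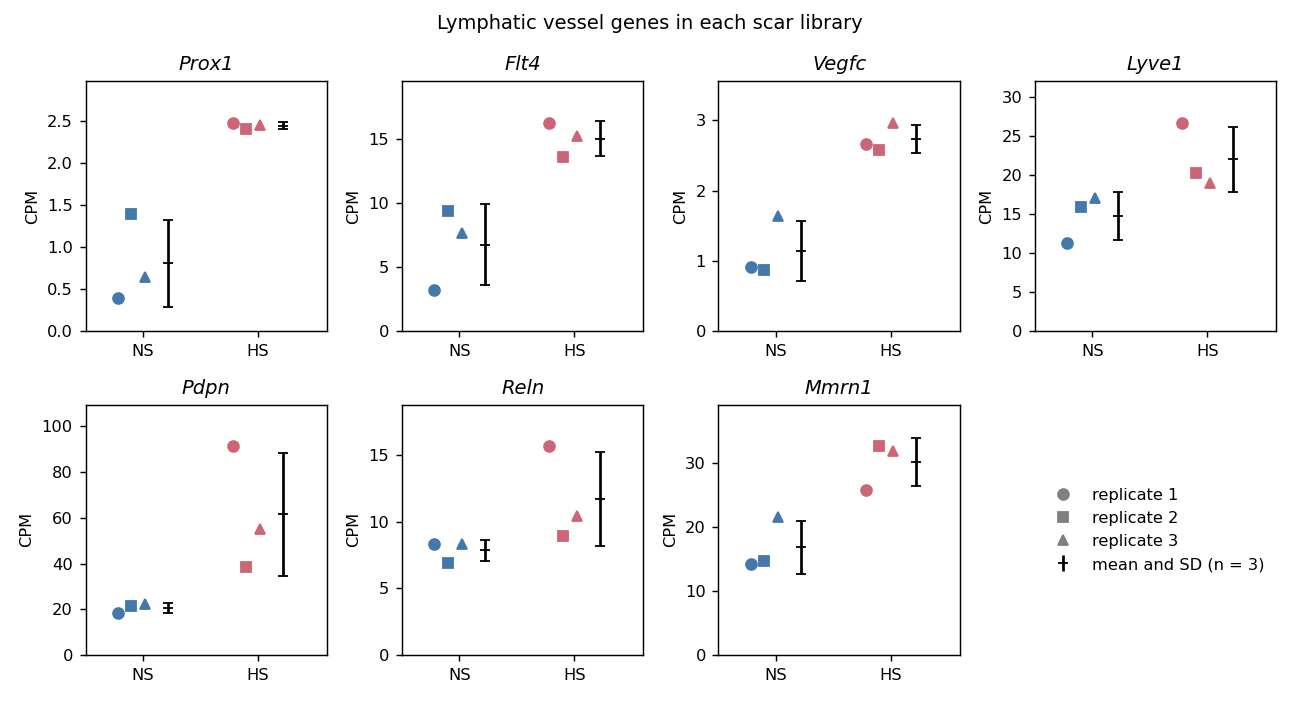
Levels of the 7 lymphatic vessel genes in each library, in CPM on axes that start at 0, with bars for the mean and SD of 3 libraries. Every HS point lies above every NS point. Prox1 was nearly level over the HS libraries (2.41 to 2.48 CPM, from 54 to 67 counts), and Pdpn was spread from 38.5 to 91.2 CPM.

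Per kilobase of exon, the 7 genes kept 1 order of mean level in both groups. In HS the means were 33.9 CPM per kilobase for Pdpn, 7.53 for Lyve1, 5.13 for Mmrn1, 1.82 for Flt4, 1.12 for Vegfc, 0.492 for Reln and 0.292 for Prox1. In NS the means were 11.3, 5.06, 2.87, 0.819, 0.466, 0.331 and 0.0964 CPM per kilobase in the same order of genes. Neighbours in this order did not overlap over the libraries of a group, except Flt4 (0.393 to 1.14 CPM per kilobase) and Vegfc (0.353 to 0.669) in NS, and Vegfc lay only just above Reln there. The transcription factor Prox1 was thus the lowest of the 7 by level.

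The 7 genes did not vary in the same way among the HS libraries. Relative to the NS mean of log2 CPM, HS replicate 2 was 1.77 higher in Prox1, 1.14 in Flt4 and 1.24 in Vegfc, but 0.91 in Pdpn and 0.20 in Reln. In HS replicate 1 the same differences were 1.82, 1.40, 1.29 and 2.15 for the first 4 of these genes, and Reln was at its highest. HS replicate 2 was the lowest HS library for 5 of the 7 genes, for 21 of 22 endothelial markers and for all 16 fibroblast markers. The summed endothelial markers were 1.37, 0.655 and 1.32 above the NS mean in HS replicates 1 to 3, and the summed fibroblast markers 2.03, 0.959 and 1.68. Among the NS libraries, replicate 1 was lowest for 5 of the 7 genes and replicate 3 highest for 5.

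**Figure D2:**
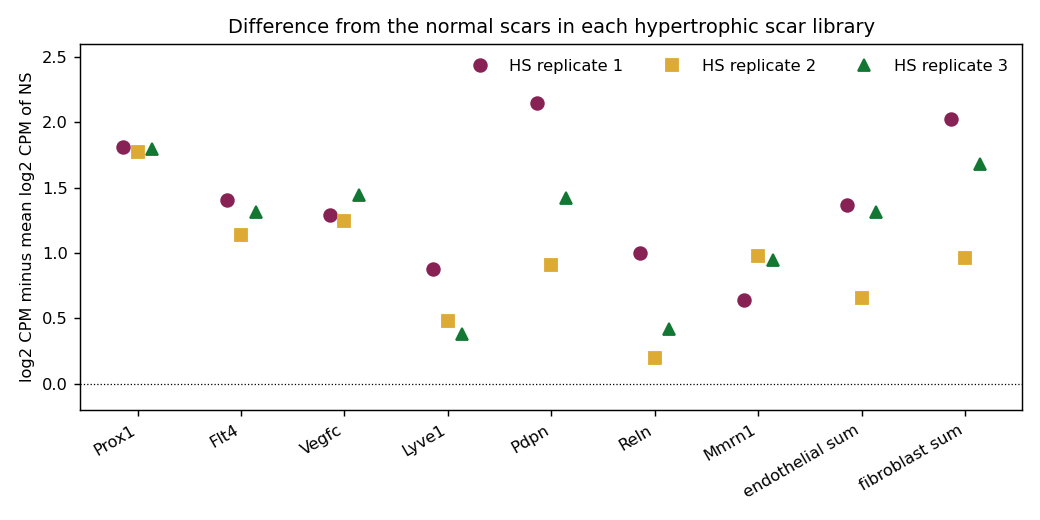
Difference of each HS library from the mean log2 CPM of the NS libraries, for the 7 genes and for the summed endothelial and fibroblast markers (vertical axis, log2 scale; symbols stand for libraries). HS replicate 2 lies below the other HS libraries in both sums and in Pdpn and Reln, while the 3 libraries nearly coincide in Prox1. The Prox1 points rest on 54 to 67 counts, whose counting error is wide beside their spread.

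The pattern of a gene was compared over the 6 libraries as its log2 CPM minus its own NS mean, by the root mean square difference between genes. Among the 7 genes the closest pair was Lyve1 and Reln (0.264), followed by Lyve1 and Mmrn1 (0.355) and by Vegfc and Mmrn1 (0.365), and the farthest pair was Prox1 and Reln (1.1). Prox1 was nearest to Flt4 (0.439) among these genes. Over the other 11540 genes with a mean of at least 5 CPM, the nearest to Prox1 were Tnni1 (0.301), a troponin of slow muscle, and Col6a5 (0.359), a collagen VI chain. Flt4 was nearest to Gngt2 (0.183), a G protein gamma subunit, and Masp1 (0.236), a protease of the lectin complement pathway. Vegfc was nearest to Lat2 (0.224), an adaptor protein of immune cells, and Rftn2 (0.235), Lyve1 to Srr (0.0667), serine racemase, and Agmo (0.0955), and Pdpn to Ddah1 (0.0923) and Epb4.1l3 (0.0995). Reln was nearest to Psmb9 (0.0599), a subunit of the immunoproteasome, and Taok3 (0.0698), and Mmrn1 to Pmaip1 (0.117) and Ptger3 (0.134), a prostaglandin E2 receptor.

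Markers of endothelium in general and of blood vessels were set beside the 7 genes. Of 22 tested 15 passed, each of them higher, and the median log2 fold change over the 22 was 1.12, against 1.15 over the 7 genes. The adhesion gene Pecam1 averaged 103.8 ± 27.2 CPM (SD, n = 3) in HS, against 35.1 ± 2.80 CPM in NS, with an edgeR adjusted p of 0.008279. Cdh5, which encodes VE-cadherin, averaged 122 ± 36.4 CPM and 47.0 ± 5.01 CPM, with an edgeR adjusted p of 0.01783. Flt1 and Kdr, the other VEGF receptors, rose 2.00-fold and 2.20-fold, and Eng, a co-receptor of TGF-beta family ligands, 2.31-fold. The count of 15 became 21 when HS replicate 2 was left out, 2 when HS replicate 3 was and 0 when any NS library was. In bulk tissue, more cells of a type and more RNA per cell cannot be told apart.

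To compare the 7 genes with the endothelial markers directly, each was expressed as a percentage of their summed CPM in the same library, 604 to 988 CPM in HS and 377 to 396 CPM in NS. Prox1 made 0.251, 0.398 and 0.257% of the sum in HS and 0.0994, 0.37 and 0.169% in NS, a ratio 1.60-fold higher with overlapping groups (exact permutation p = 0.3). Flt4 stood at 1.59 to 2.24% in HS and 0.817 to 2.49% in NS, Vegfc at 0.27 to 0.428% and 0.229 to 0.433%, and Pdpn at 5.74 to 9.23% and 4.61 to 5.85%. The groups overlapped for all 3. Mmrn1 (2.61 to 5.39% and 3.6 to 5.69%) and Lyve1 (1.98 to 3.36% and 2.85 to 4.52%) also overlapped.

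Reln was the exception among the 7 genes, at 1.58, 1.48 and 1.09% of the endothelial sum in HS and 2.1, 1.84 and 2.2% in NS. Its groups did not overlap, and its share of the sum in HS was 0.671 of that in NS on average (two-sided exact permutation p = 0.1). The sum itself was 604 to 988 CPM in HS and 377 to 396 CPM in NS. A gene with equal CPM in all libraries would therefore also be lower in this ratio in HS without overlap. The share of all genes with such a ratio was not computed. The smallest p that 3 against 3 libraries allow is 0.1, so no ratio could pass. Adjusted over the 7 ratios, the p-values lay between 0.467 and 0.9 (exact permutation tests with Benjamini-Hochberg adjustment). The mean log2 ratio differed between HS and NS by 0.68 for Prox1, 0.17 for Flt4, 0.21 for Vegfc, 0.38 for Pdpn, -0.25 for Mmrn1, -0.53 for Lyve1 and -0.57 for Reln. The signs for Flt4, Vegfc and Pdpn depended on the denominator, since with Pecam1 alone they were -0.24, -0.20 and -0.04.

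**Figure D3:**
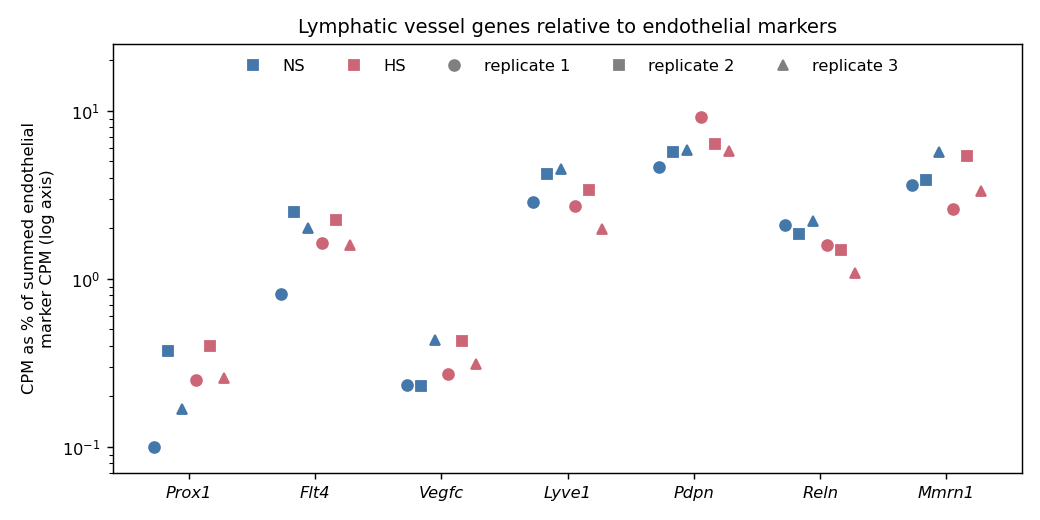
CPM of each lymphatic vessel gene as a percentage of the summed CPM of 22 endothelial markers in the same library, on a log axis, with NS in blue and HS in red. The groups overlap for each gene except Reln, for which HS (1.09 to 1.58%) lies below NS (1.84 to 2.2%).

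Among genes of the lymphatic growth factor axis, the largest rises were in Ccbe1 and Angpt2. Of 21 tested 8 passed, each of them higher, with a median log2 fold change of 0.70. Ccbe1, the secreted factor that helps to mature VEGF-C, stood at 31.1, 16.9 and 29.1 CPM in HS and 5.60, 5.62 and 6.36 CPM in NS, a 4.39-fold rise (edgeR adjusted p = 0.005472). All NS libraries were close together and the lowest HS library was well above them. The Ccbe1 call was lost in 1 of 14 alternatives, the fit without NS replicate 2, with log2 fold changes between 1.97 and 2.36 over all of them. Adamts3, the protease that cuts VEGF-C, stood at 11.95, 9.58 and 16.0 CPM in HS and 10.5, 12.2 and 11.7 CPM in NS, and its log2 fold change of 0.13 (95% interval -0.35 to 0.61) did not pass.

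The related ligand Figf (now Vegfd) stood at 35.9, 16.1 and 21.4 CPM in HS and 12.4, 17.0 and 20.9 CPM in NS. Its groups overlapped, and the log2 fold change of 0.54 (95% interval -0.19 to 1.27) did not pass. Nrp2, a co-receptor of VEGFR3, had a log2 fold change of 0.16 (95% interval -0.11 to 0.42, edgeR adjusted p = 0.4303). Itga9, an integrin chain of lymphatic valves, rose 1.52-fold (edgeR adjusted p = 0.0493), a call lost in 9 of 14 alternatives. Angpt2, an angiopoietin needed for lymphatic remodelling, averaged 21.7 ± 7.30 CPM (SD, n = 3) in HS, against 4.63 ± 0.714 CPM in NS, a 4.67-fold rise (edgeR adjusted p = 0.007624). For Ccbe1 and Angpt2, HS replicate 2 was the lowest HS library, as in the summed endothelial and fibroblast markers. Which cells made these 2 transcripts was not tested. Aplnr, the apelin receptor, rose 2.85-fold. When HS replicate 1, 2 or 3 was left out, the count of 8 genes became 5, 12 and 3, and when NS replicate 1, 2 or 3 was left out it became 1, 0 and 1. Limma-voom called 5 of them.

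Of 16 other lymphatic endothelial markers tested, 5 passed, each of them higher, with a median log2 fold change of 0.56. Itga9 is among the 5 and also among the 8 of the growth factor axis, just as Kdr and Tek are counted both in that axis and among the endothelial markers. Ccl21a, a chemokine of lymphatic vessels, stood at 30.7, 36.0 and 27.5 CPM in HS and 14.5, 22.6 and 23.3 CPM in NS. Its groups did not overlap, and its log2 fold change of 0.64 ± 0.196 (SE, edgeR adjusted p = 0.07443) did not pass. Ccl21a has near-identical gene copies that could share its reads, so its counts are uncertain. Klhl4 averaged 10.5 ± 0.648 CPM (SD, n = 3) in HS, against 3.83 ± 1.41 CPM in NS, a 2.72-fold rise (edgeR adjusted p = 0.02164). Cldn11, a claudin, had 20, 23 and 44 counts in HS and 2, 0 and 4 in NS (edgeR adjusted p = 0.03427). Stab1, a scavenger receptor also found on macrophages, rose 2.21-fold and Ptx3, a pentraxin also made by stromal and myeloid cells, 4.71-fold. The count of 5 became 3, 6 and 1 when HS replicate 1, 2 or 3 was left out, 1, 0 and 0 when NS replicate 1, 2 or 3 was, and 2 with the replicate number as a block, which ended the calls of Stab1 (edgeR adjusted p = 0.07948), Cldn11 (edgeR adjusted p = 0.05216) and Itga9 (edgeR adjusted p = 0.0592). The Stab1 call was lost in 7 of 14 alternatives.

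**Figure D4:**
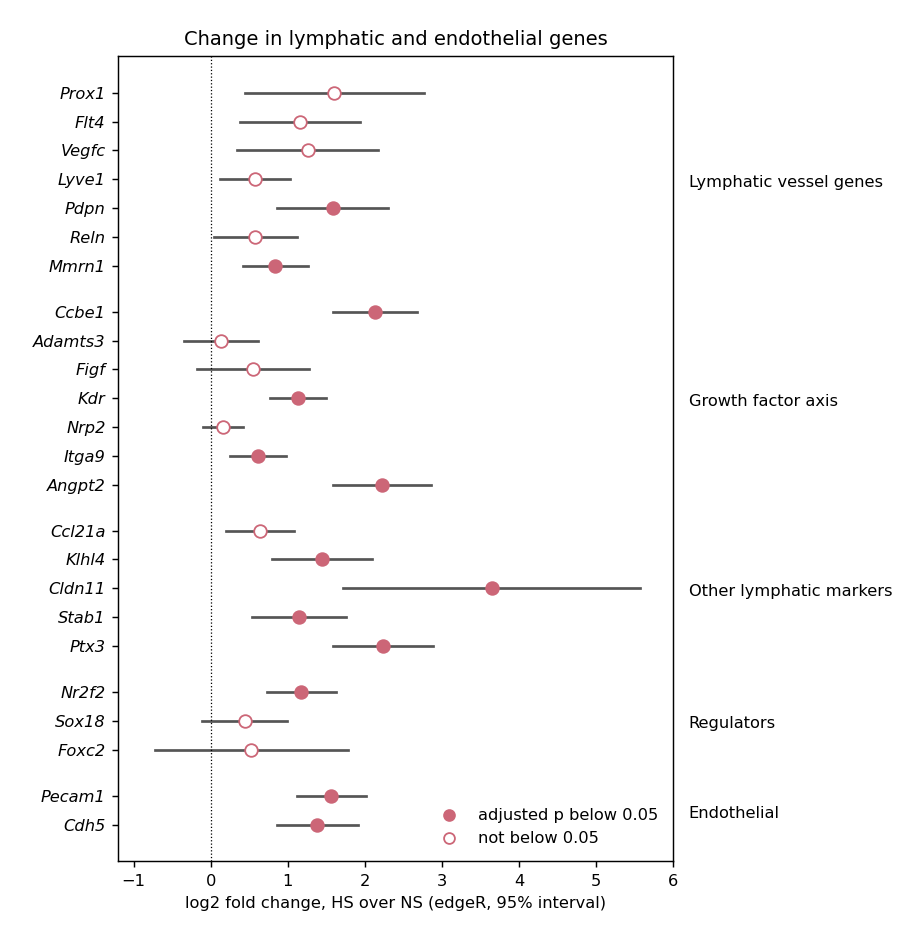
Log2 fold changes of HS over NS from edgeR, with 95% intervals, for the 7 lymphatic vessel genes and for genes of their growth factor axis, other lymphatic markers, regulators and endothelial markers. Genes beyond the 7 are a selection from their lists, and genes lower in HS, such as Klf4 and Bmp2, are not shown. Filled points passed at 0.05, among them Pdpn, Mmrn1, Ccbe1 and Angpt2, while Adamts3, Figf and Nrp2 have intervals that include 0.

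Of 27 transcription factors, valve and flow genes of lymphatics, 5 rose and 1 fell, with a median log2 fold change of 0.18. Nr2f2, the nuclear receptor that acts with Prox1 and also marks veins, averaged 28.9 ± 6.35 CPM (SD, n = 3) in HS, against 12.8 ± 1.96 CPM in NS, a 2.26-fold rise (edgeR adjusted p = 0.01442). The atypical cadherin Fat4, needed for lymphatic valves and also found in mesenchymal cells, rose 3.49-fold. Emilin1, a matrix protein of elastic fibres and of lymphatic anchoring, rose 2.68-fold. Klf4, a flow-responsive factor that is also abundant in epidermis, fell by 0.48 on the log2 scale. Sox18, which switches on Prox1 in the embryo, stood at 10.8, 8.55 and 9.19 CPM in HS and 5.60, 9.36 and 6.12 CPM in NS (log2 fold change 0.44, edgeR adjusted p = 0.2865). The valve factor Foxc2 had 31, 32 and 34 counts in HS and 9, 29 and 22 in NS (edgeR adjusted p = 0.591). In Prox1, Flt4, Sox18 and Foxc2, NS replicate 1 was the lowest library and NS replicate 2 the highest of NS. Prox1 and Foxc2 had only 9 to 29 counts in NS. The order was not shared by all lymphatic genes, since NS replicate 2 was the lowest of NS in Vegfc, Nr2f2 and Klhl4. How many genes of the lists had either order was not counted. The count of 5 became 9 when HS replicate 2 was left out, 1 when HS replicate 3 was and 0 when any NS library was. The count of 1 that fell became 5 when HS replicate 2 was left out and 3 with DESeq2, and 0 when HS replicate 3 or any NS library was left out.

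**Figure D5:**
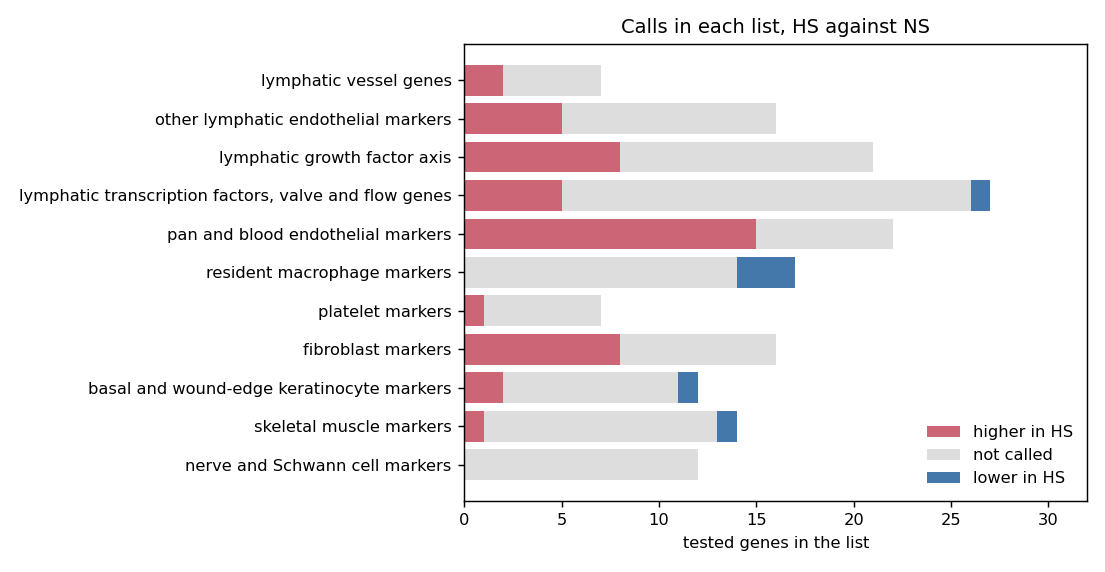
Number of tested genes in each list that passed as higher in HS (red), passed as lower (blue) or did not pass (grey), by edgeR at an adjusted p of 0.05. The longest red bar is that of the endothelial markers (15 of 22), beside 2 of 7 lymphatic vessel genes, 8 of 21 growth factor axis genes and 8 of 16 fibroblast markers, and some genes, such as Itga9, Kdr and Tek, are in more than 1 list.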

How the data were processed

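Total RNA of 6 skin scar libraries was depleted of ribosomal RNA and read as 150 bp paired ends, per the labels' protocols. The authors' deposited table holds raw counts per gene, all whole numbers, per the file headers. The submitters' processing notes name HISAT2 2.0.4, cutadapt 1.9.3 and HTSeq 0.9.1, also edgeR, and build mm10. Their settings, strand included, are not known here. The 6 columns of normalized values were not used.

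The first set of columns was tested with edgeR 4.0.16 in R 4.3.3. Genes were kept by filterByExpr (minimum count 10), which left 14513 of 17572 genes, and libraries were scaled by TMM. One count was worth 0.03661 to 0.04802 CPM, and Poisson intervals cover counting error only. The quasi-likelihood fit (glmQLFit, robust) had the group as its only term. Standard errors are the log2 fold change over the square root of the F statistic. DESeq2 1.42.0, limma-voom (limma 3.58.1), other scalings and filters, the replicate block and each library left out were alternatives. The procedure was tested on simulated data with 200 changed genes. It recovered 16.4% of the 1.5-fold, 68.7% of the 2-fold and 95.4% of the 4-fold changes. Of its 129 calls, 10 were false. The simulated noise was independent between genes, and the changed genes had a mean of at least 1 CPM. The real table gave 1284 calls, so these rates need not hold for it.

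Coordinates are those of GENCODE vM21 (GRCm38), which 17398 gene IDs matched, and promoter sequences are from RefSeq (GRCm38.p6). One of the rows named Ackr4, whose ID is not in GENCODE, was left out of its list. The 7 genes and all lists were chosen with earlier results of these data known. Beyond the 7, the rule named up to 4 called genes with the smallest p per list, or the best 2, and Pecam1, Cdh5, Figf, Ccbe1, Adamts3, Nrp2 and Ccl21a whatever their result. Itga9, Bmp2, Sox18, Foxc2, Pf4, Itga2b, Itgb3, Gp1bb, Cd68, Mrc1, Tek and Krt14 were named outside it after their values were seen. Pairs of libraries within a group had a chi-square per gene of 14.2 to 107, beyond sampling noise.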

Additional observations from a re-analysis of the deposited data

How the results depend on the processing

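The direction of all 7 genes was kept in every alternative run, and the calls of Pdpn and Mmrn1 each held in 10 of 14. DESeq2 raised the genes called from 1284 to 2435 and the members called from 2 to 5, with log2 fold changes of 1.61 for Prox1, 1.16 for Flt4 and 1.26 for Vegfc. Leaving out 1 library at a time gave 25 to 3257 genes called and 0 to 3 members (0 without HS replicate 3 or NS replicate 1, 2 or 3, and 3 without HS replicate 2). Log2 fold changes then ranged from 1.18 to 1.82 for Pdpn, 0.72 to 1.05 for Mmrn1, 0.30 to 0.73 for Reln, 0.40 to 0.69 for Lyve1, 1.26 to 2.22 for Prox1, 0.81 to 1.45 for Flt4 and 1.09 to 1.61 for Vegfc. With no factor beyond the library total, 930 of 1515 called genes were higher, against 919 of 1284.

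The replicate block called 1001 genes and the same number of members, 2. Same-numbered libraries deviated from their group means with correlations of 0.0133 to 0.036, and 5 of 6 libraries correlated best with their own number. Correlations this weak do not settle whether the libraries are paired. The numbers were not taken as pairs because nothing in the labels says that they mark a shared animal.

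The log2 ratio to the endothelial markers changed sign for Flt4 with Pecam1 (-0.24) or Cdh5 (-0.052) as denominator, for Vegfc (-0.20 and -0.012) and for Pdpn with Pecam1 (-0.038). It ranged from -0.31 to 0.49 for Flt4 when 1 library was left out. The median log2 fold change changed sign for platelet markers with no filter (-0.080) and for nerve markers with no scaling factor (-0.0465) or at least 1 CPM in 3 libraries (-0.11). With 1 library left out it ranged from -0.17 to 0.44 for muscle and from -0.12 to 0.025 for nerve markers. The lists' calls moved by over 1.5 times in some alternatives. DESeq2 called 13 fibroblast markers higher against 8, and 8 regulators against 5, and limma-voom 5 growth factor genes against 8 and 3 regulators against 5. The cause of these changes was not tested. At 9 to 29 counts in NS, counting error limits the precision for Prox1.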
